A study of Mus musculus with 6 samples.

Results

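A set of 10 genes that mark spermatogonia or govern the entry into meiosis were followed in an m6A-seq data set of mouse male germ cells. They were picked by name: Zbtb16, Gfra1, Id4, Etv5, Sall4, Uchl1, Dmrt1, Kit, Stra8 and Tex101. Of these 10 genes 9 carried at least 1 m6A peak in both comparisons of the study, and Uchl1 carried none in either, out of 14483 genes with a peak in at least 1 comparison. The 9 genes held 19 of the 24127 peaks of the ClpP comparison and 17 of the 23681 peaks of the ClpX comparison.

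The study mapped N6-methyladenosine (m6A), a methyl mark on adenosines inside RNA, by antibody capture followed by sequencing, with an immunoprecipitated (IP) library and an input library for each genotype. The groups were germ cells with a ClpP knockout (cKO), germ cells with a ClpX cKO, and wild-type (WT) control germ cells, all labelled as spermatocytes of mice at postnatal day 35. Both knockouts were made with Stra8-Cre, and the labels do not say whether the WT mice carried the Cre or a floxed allele. ClpP is the peptidase and ClpX the unfoldase of a protease of the mitochondrial matrix. Each genotype had 1 IP and 1 input library, so the values have no spread between replicates to be held against. The labels give no number of animals per library.

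In the testis, GDNF from somatic cells acts through the receptor pair GFRA1 and RET to keep spermatogonial stem cells dividing, and transcription factors such as PLZF (Zbtb16), ETV5 and SALL4 act in the same cells. Retinoic acid then drives spermatogonia to differentiate, a step marked by the receptor KIT, and later induces STRA8, which starts meiosis, while DMRT1 holds back the response to retinoic acid until then. Stra8-Cre uses a Stra8 promoter fragment and begins to act in spermatogonia. Several of the 10 genes are not confined to spermatogonia: DMRT1 and ETV5 are also made by Sertoli cells, KIT by Leydig cells and, as a truncated form, by spermatids, and TEX101 by spermatocytes and spermatids.

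A peak's fold enrichment is its IP over input signal in the authors' deposited tables, given once per comparison and not per library. How the genotypes differ is given as a log2 fold change of that enrichment, read here as knockout over WT because each table names the knockout before WT; every direction below turns round if the ratio runs the other way. A peak is said to be called where its difference had an adjusted p under 0.05 in the authors' deposited tables, which compares 1 set of libraries with another and not the conditions. Enrichment is no RNA level, so these values do not show how much of each transcript the cells held, nor whether spermatogonia were among them. Fewer cells of a type and less RNA per cell cannot be told apart in such bulk samples. Coordinates are on GRCm38 (mm10), and peaks of a gene are counted from its 5′ end.

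The targeted genes gave no check of the genotypes, because enrichment is no RNA level. In the authors' deposited tables Clpx had log2 fold changes of 0.38 (ClpP cKO) and 0.55 (ClpX cKO), and Clpp had 1.70 in ClpX cKO with no listed peak in the ClpP comparison, and none of these was called. Over all peaks the median log2 fold change in the authors' deposited tables was -0.03 in ClpP cKO and 0.24 in ClpX cKO.

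The Stra8 start region is shown because a ClpP-table peak reaches into it and because the gene's promoter drives the Cre. The window below is RefSeq's promoter of Stra8 on GRCm38.p6, chr6:34920698-34920997, plus strand, 5′ to 3′, with 250 bases before and 50 after the gene start. Capitals mark the 89 bases covered by the 5′-most Stra8 peak of the ClpP comparison.

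Stra8 promoter window: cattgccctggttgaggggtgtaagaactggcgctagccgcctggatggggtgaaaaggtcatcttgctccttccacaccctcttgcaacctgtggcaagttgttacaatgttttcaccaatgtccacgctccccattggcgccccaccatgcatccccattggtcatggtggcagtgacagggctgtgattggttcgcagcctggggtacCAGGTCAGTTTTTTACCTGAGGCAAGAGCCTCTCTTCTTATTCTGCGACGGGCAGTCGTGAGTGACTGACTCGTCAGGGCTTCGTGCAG

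Both strands of the window were searched for AGGTCA, the half-site that retinoic acid receptors and other nuclear receptors bind, and for GGACT, a common form of the m6A consensus. AGGTCA occurred 2 times on the strand shown and 0 times on the other, with 1 of the 2 in the capitals. Of 32817 RefSeq promoter windows of the same length, 16.3% held AGGTCA on either strand and 45.5% held GGACT on either strand. On the given strand alone 26.1% held GGACT, and for a stretch of 89 bases it was 9.23%. The Stra8 window held no GGACT on either strand, which says only that these letters are not in it. The peak in capitals begins 39 bases before the RefSeq start used for the window, and the RefSeq gene span reaches further back, to 34920163.

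Stra8 carried its main peak in the body of the gene, over 3 blocks at chr6:34930936-34934085 in the ClpP comparison and chr6:34930907-34934085 in the ClpX comparison. In the authors' deposited table this peak had a log2 fold change of 0.77 in ClpP cKO, which was not called (adjusted p 0.0661). For ClpX cKO the authors' deposited table gave 1.04 at the same site, which was called higher (adjusted p 0.0115). By the p of the peak itself it ranked behind only the 3′ Tex101 peak among the 9 genes in each table, and its fold enrichment in the authors' deposited tables was 8.02 in the ClpP and 16.1 in the ClpX comparison. The start-region peak shown above (chr6:34920909-34927721, in 2 blocks) was listed for ClpP only, with a log2 fold change of 1.19 that was not called (adjusted p 0.525) in the authors' deposited table. All 3 Stra8 values were positive, and 1 of them was called. Over all peaks 47.7% were positive in ClpP cKO and 58% in ClpX cKO, and 15.1% were called higher in ClpX cKO. The main-peak values of the 2 comparisons rest on the same WT libraries. Its ClpX call was not left after the median of all ClpX peaks was subtracted.

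Dmrt1, the DM-domain factor that restrains Stra8 in spermatogonia, had the highest value of all peaks of the 9 genes in each comparison. Its 5′ peak begins 89 bases after the gene start in both tables (chr19:25505707-25505916 for ClpP, chr19:25505707-25509692 for ClpX). In ClpX cKO the authors' deposited table gave it a log2 fold change of 1.91, a 3.76-fold higher enrichment, and called it (adjusted p 1.05e-06). That value stood above 91.4% of all ClpX peaks. In ClpP cKO the same site had 1.43 in the authors' deposited table and was not called (adjusted p 0.0741). The ClpX-table peak is longer, at 508 bases in 2 blocks against 210 bases in 1 block, so the 2 values do not cover the same bases. A weakly enriched peak at the 3′ end (chr19:25604061-25604180, fold enrichment 1.81) was listed for ClpP only, with a log2 fold change of 1.18, not called, in the authors' deposited table.

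Kit, the receptor of differentiating spermatogonia, had a peak in its last part at chr5:75654808-75655078 (ClpP) and chr5:75654749-75655078 (ClpX), at 97.8% of the gene span. The truncated KIT transcript of spermatids shares this 3′ part, so the peak does not separate the forms. In the authors' deposited table the log2 fold change was 1.29 in ClpX cKO and was called higher (adjusted p 0.0209). In ClpP cKO the authors' deposited table gave 1.13, just past the threshold and not called (adjusted p 0.0549). The Kit peak was weakly enriched, at 2.98 (ClpP) and 2.47 (ClpX) in the authors' deposited tables. Peaks that weak were often higher in ClpX cKO: with each table cut into 5 equal classes by enrichment, the lowest ClpX class had a median log2 fold change of 0.81, and 33.2% of its peaks were called higher.

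**Figure D1:**
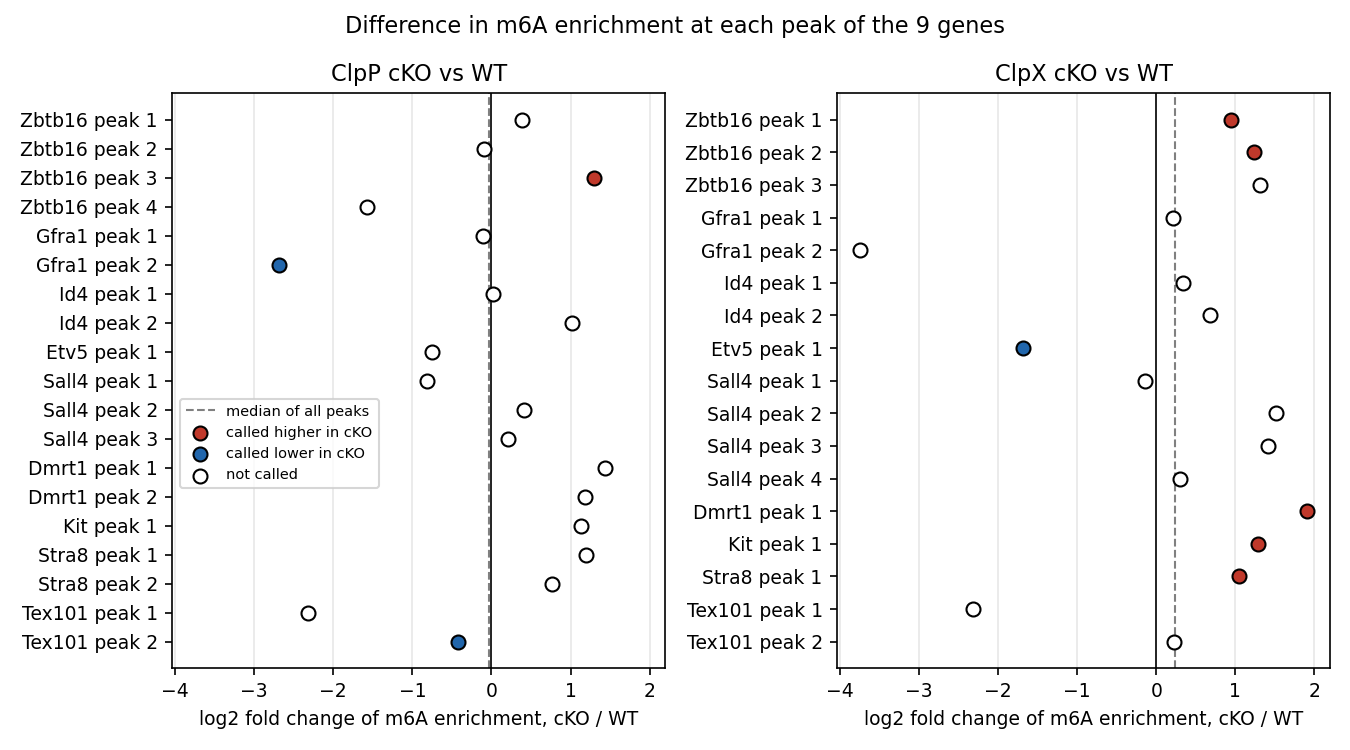
Log2 fold change of m6A enrichment (cKO over WT, x axis) at each peak of the 9 genes (rows, peaks counted from the 5′ end), with ClpP cKO on the left and ClpX cKO on the right. Each point is 1 peak of the authors' deposited tables, filled where called, and the dashed line is the median of all peaks; the values run from -2.68 to 1.43 for ClpP and from -3.75 to 1.91 for ClpX.

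Zbtb16, which encodes the zinc finger factor PLZF that stem cells need for self-renewal, carried peaks at both ends of its span of 184429 bases on chromosome 9. The peak at chr9:48656953-48657371 in the ClpP comparison lies at 97.1% of the span. It was called higher in ClpP cKO, with a log2 fold change of 1.30 (adjusted p 0.0209) in the authors' deposited table. The matching ClpX-table peak is longer, at 478 bases in 2 blocks against 419 bases in 1 block. In ClpX cKO it had 1.23 and was also called higher (adjusted p 0.0186) in the authors' deposited table. It was the 1 site of the 15 sites paired between the tables that was called in both comparisons. The comparisons share the WT libraries, so this is no independent repeat.

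The other Zbtb16 sites had values further apart in the 2 tables, a difference that was not tested. The 5′ site was listed for ClpX as a peak of 1225 bases with a fold enrichment of 53.0, the highest of all peaks of the 9 genes, and was called higher at 0.94 (adjusted p 0.0178) in the authors' deposited table. For ClpP 2 shorter peaks lay inside it, with log2 fold changes of 0.39 and -0.09, neither called, in the authors' deposited table. At the 3′-most site (chr9:48654536-48654924 for ClpP) the authors' deposited tables gave -1.57 in ClpP cKO and 1.31 in ClpX cKO. Neither of these was called (adjusted p 0.286 and 0.324). Zbtb16 thus had 3 called values of 7, all higher, with the site called in both comparisons counted in each. Over all peaks 6.74% were called higher in ClpP cKO and 15.1% in ClpX cKO. Neither ClpX call of Zbtb16 was left after the median of all ClpX peaks was subtracted.

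Gfra1, the GDNF co-receptor, had 2 peaks within its last 2% of span in each comparison, and they differed from each other. The 3′-most peak at chr19:58235754-58236232 had a log2 fold change of -2.68 in ClpP cKO, a 0.156-fold enrichment relative to WT, and was called lower (adjusted p 0.0468) in the authors' deposited table. In ClpX cKO the authors' deposited table gave -3.75 there, the lowest value of the 9 genes, which was not called (adjusted p 0.0759). The neighbouring peak towards the gene start (chr19:58237848-58238356 for ClpP) had -0.11 (ClpP) and 0.22 (ClpX) in the authors' deposited tables, and was not called in either. The 3′-most peak shares 259 bases (ClpP) and 288 bases (ClpX) with a peak of Gm16277 on the opposite strand. That Gm16277 peak had log2 fold changes of -3.30 and -2.85, not called, in the authors' deposited tables. No label says whether the counting used strand, so the 2 genes cannot be told apart at this site.

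Etv5, an ETS-family transcription factor that acts downstream of GDNF, had 1 peak in each comparison, near its 3′ end at 96.6% to 96.7% of the span. In ClpX cKO it was called lower, with a log2 fold change of -1.69 (adjusted p 0.00155) at chr16:22382956-22383615 in the authors' deposited table. In ClpP cKO the authors' deposited table gave -0.75, which was not called (adjusted p 0.163). Both peaks were strongly enriched, at 32.9 (ClpP) and 20.5 (ClpX) in the authors' deposited tables. For ClpX, 5.0% of all peaks were called lower, and 11.7% of those in the class of highest enrichment.

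Id4, an inhibitor of helix-loop-helix factors and a marker of stem cells, had no called peak. Its 2 peaks had 0.03 and 1.02 in ClpP cKO and 0.34 and 0.68 in ClpX cKO in the authors' deposited tables. Sall4, a zinc finger factor of undifferentiated spermatogonia, had the most peaks of the 9 genes in ClpX, 4, and 3 in ClpP, with none called. Its strongest peak, at chr2:168756237-168756745, had -0.81 in ClpP cKO (adjusted p 0.10) and -0.14 in ClpX cKO in the authors' deposited tables. Its other values ran from 0.21 to 0.42 in ClpP cKO and from 0.30 to 1.51 in ClpX cKO in the authors' deposited tables. Sall4 peaks at chr2:168755040-168755279 and chr2:168754471-168754711 were listed for ClpX only. Uchl1, a ubiquitin hydrolase of spermatogonia, and its span on chromosome 5 (66676121 to 66687234) held no peak of any gene, which is no statement on its RNA level.

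Tex101 encodes a GPI-anchored surface protein of germ cells that sperm need for fertility. Its 3′ peak at chr7:24668007-24668362 was called lower in ClpP cKO at -0.43 (adjusted p 0.000257), and in ClpX cKO it had 0.22 and was not called (adjusted p 0.0776) in the authors' deposited tables. Its other peak, at chr7:24676498-24676675, lies 4625 bases before the RefSeq start, so its link to Tex101 rests on the authors' annotation. That peak had -2.32 in both comparisons and was not called in either (adjusted p 0.187 and 0.496) in the authors' deposited tables. The called value was thus the smaller one, from the peak with a fold enrichment of 3.76, against 36.8 for the upstream peak in the ClpP comparison.

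Counted together, 1 peak of the 19 was called higher in ClpP cKO and 2 were called lower. Over all ClpP peaks 6.74% were called higher and 12.8% lower, so 1 and 2 of 19 lie near the background. In ClpX cKO 5 of the 17 peaks were called higher, against 15.1% of all peaks, and 1 was called lower, against 5.0%. The 5 higher calls came from 4 genes (Zbtb16, Dmrt1, Kit and Stra8), of which Zbtb16 gave 2. With all ClpX values lowered by the table's median and calls made again, 1 higher call was left, Dmrt1, while Etv5 and the 3′-most Gfra1 peak were called lower. Under that rule 11.1% of all ClpX peaks were called higher and 13.7% lower. The median log2 fold change was 0.21 over the 19 ClpP peaks, against -0.03 over all peaks, and 0.68 over the 17 ClpX peaks, against 0.24. Taken as 1 value a gene, by the mean of its peaks, the ClpP median was 0.0065.

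By size alone, 6 of 19 peaks had a log2 fold change of at least 1 in ClpP cKO and 3 had at most -1, against 17.5% and 13.7% of all peaks. In ClpX cKO the counts were 7 and 3 of 17, against 25.7% and 15.7%. Of the ClpP peaks of the 9 genes, 7 had a log2 fold change of at least 1 in either direction without being called, or 36.8%, against 22.1% of all peaks. The same was true of 5 ClpX peaks, or 29.4%, against 27.7%. These shares describe peaks of 9 genes that were listed with earlier results known and carry no test.

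**Figure D2:**
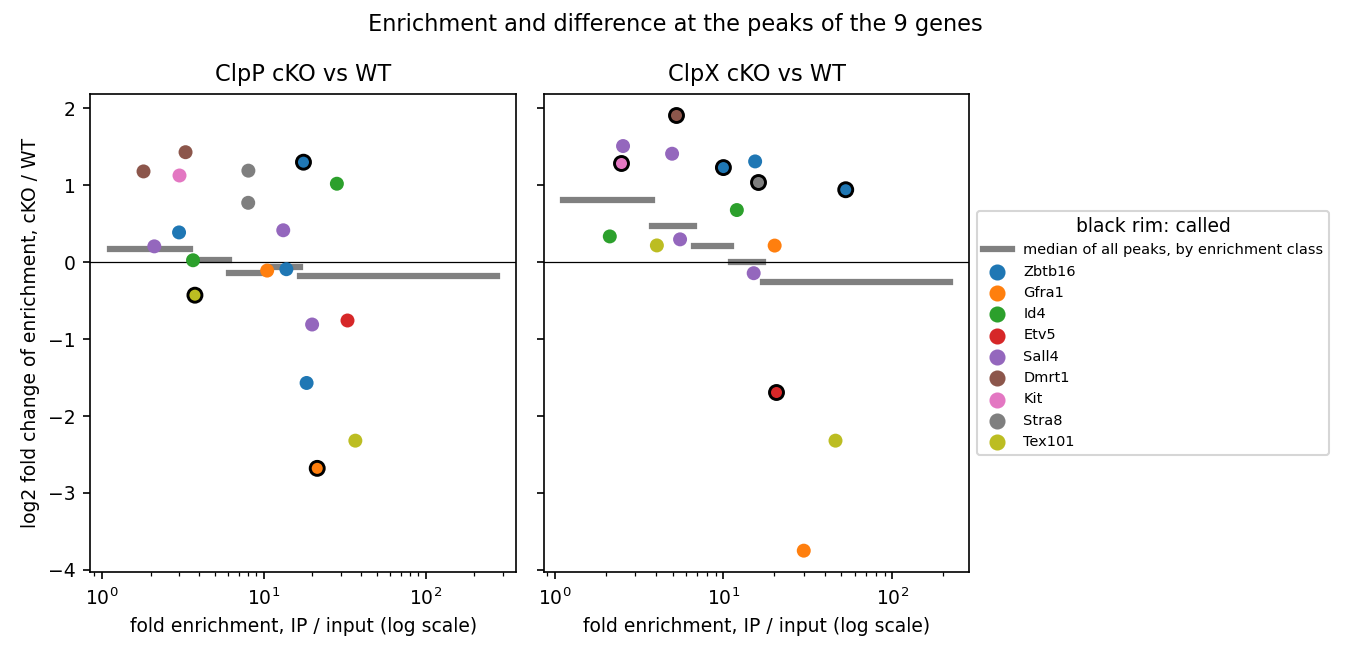
Fold enrichment of IP over input (x axis, log scale) against the log2 fold change of enrichment, cKO over WT (y axis), for the peaks of the 9 genes in ClpP cKO (left) and ClpX cKO (right). Colours name genes, a black rim marks a called peak, and grey bars give the median of all peaks in each of 5 classes by enrichment; in ClpX cKO the bars fall from 0.81 to -0.26.

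The difference moved with how strongly a site was enriched. In the ClpX table the median of all peaks was -0.26 in the class of highest enrichment and 0.81 in that of lowest, and in the ClpP table it was -0.17 and 0.17. Against the median of their own class, the called ClpX peaks stood 1.43 higher for Dmrt1, 1.04 for Stra8, 1.21 and 1.01 for Zbtb16 and 0.48 for Kit, and Etv5 stood at -1.43. Kit was the called peak whose difference lost most in this way. Over all peaks of the 9 genes the median distance from the class median was 0.039 in ClpP cKO and 0.48 in ClpX cKO. What part enrichment had in the calls was not tested.

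Beyond the values of the difference, the 9 genes were compared with all genes in where and how they were marked. Their median fold enrichment was 10.5 against 8.23 over all peaks in the ClpP table, and 12.0 against 8.90 in the ClpX table. A single peak was listed for 2 of the 9 genes in the ClpP table, or 22.2%, against 53.9% of all genes. For ClpX the number was 4 of 9, or 44.4%, against 54.0%. In the last 10% of the gene span lay 10 of 19 ClpP peaks, or 52.6%, against 39.5% of all placed peaks, and 8 of 17 ClpX peaks, or 47.1%, against 37.9%. The first 10% held 4 of the 19 ClpP peaks, counting the Tex101 peak before the RefSeq start, and 3 of the 17 ClpX peaks. As shares these were 21.1% and 17.6%, against 9.23% and 11.3% of all placed peaks. Peaks of 1 gene share its transcript and are not independent, and these shares carry no test.

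**Figure D3:**
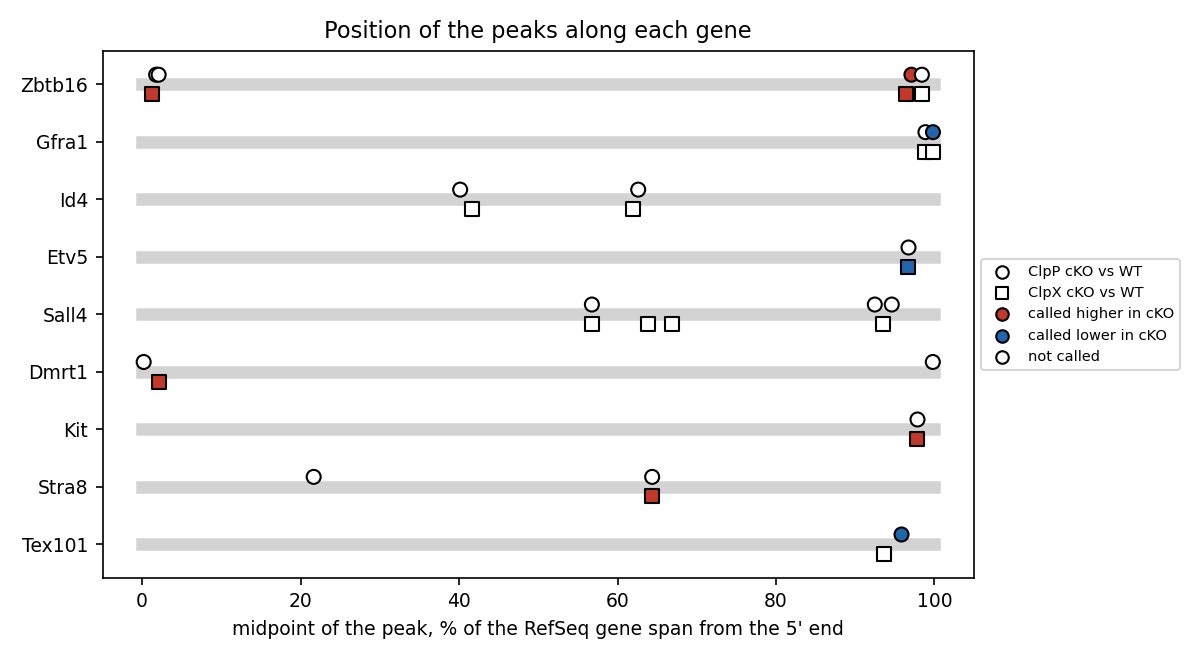
Midpoint of each peak along the RefSeq span of its gene (x axis, % from the 5′ end) for the 9 genes (rows), with circles for ClpP cKO vs WT and squares for ClpX cKO vs WT, filled where called. The called peaks lie at either end of the span except that of Stra8, at 64.3%; the Tex101 peak upstream of the span is not drawn.

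Peaks at the 3′ end were not all changed one way. Past 90% of the span, a Zbtb16 peak was called higher in ClpP cKO, and Gfra1 and Tex101 peaks were called lower. In ClpX cKO, Zbtb16 and Kit peaks were called higher in that part of the span, and the Etv5 peak lower. Both peaks called in the first 10%, the 5′ peaks of Dmrt1 and Zbtb16 in ClpX cKO, were higher. Over all ClpX peaks 15.1% were called higher and 5.0% lower. After subtraction of the ClpX median, the Zbtb16 peaks at both ends and the Kit peak were no longer called in ClpX cKO. The 3′-most Gfra1 peak was then called lower.

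The same tables were read for related lists of genes. A gene is counted as higher or lower where at least 1 of its peaks was called so. Over all genes with a peak, 10.7% were higher and 19.9% lower in ClpP cKO, and 22.2% higher and 8.42% lower in ClpX cKO. The first list held further regulators of spermatogonial stem cells. Of its 11 genes with a ClpP peak, 0 were higher and 3 lower, and of 12 with a ClpX peak, 0 were higher and 1 lower. Adgra3, an adhesion receptor used as a marker of spermatogonial progenitors, was called lower in both, at -1.27 (ClpP) and -1.13 (ClpX) in the authors' deposited tables. Taf4b, a TFIID subunit of germ cells, at -0.96 and the integrin Itga6 at -0.72 were the other lower genes in ClpP cKO in the authors' deposited table. Ret had no peak in the ClpP table, and Nanos2, Nanos3, Bcl6b, Lhx1, Eomes, Pax7 and Utf1 had none in either.

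Of the list for spermatogonial differentiation, 10 genes had a ClpP peak and 8 had a ClpX peak, and in both comparisons 0 were called in either direction. Sohlh1 and Sohlh2, the helix-loop-helix factors of this step, had no listed peak.

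The retinoic acid and meiotic entry list had more lower than higher calls in ClpP cKO and more higher than lower ones in ClpX cKO, as did all genes. In ClpP cKO 0 of its 17 genes were higher and 4 lower: Rdh11, a retinol dehydrogenase, at -0.86, the RNA-binding protein Rbm46 at -0.57, the retinoic acid hydroxylase Cyp26b1 at -2.16 and the receptor Rara at -2.50 in the authors' deposited table. In ClpX cKO 6 of 18 were higher and 2 lower, with 1 gene, Meioc, in both counts. Rdh11 at 0.48, Rbm46 at 1.54 and Gm4969 at 2.12 were called higher there, and Rara at -2.81 was called lower, in the authors' deposited table. Gm4969 is listed by RefSeq as Bhmg1 with the synonym Meiosin, the partner of STRA8 at meiotic genes. Meioc, which meiotic prophase needs to be kept up, had 1 peak called higher at 0.40 and 1 called lower at -0.97 in the authors' deposited table. The Rbm46 peaks ranked first in the 2 comparisons lie at different sites, while the Rara peak has the same coordinates in both (chr11:98950297-98950566). The same holds for the Rdh11 peak (chr12:79175558-79182704), which was called in opposite directions. Whether the comparisons differ was not tested, and both use the same WT libraries.

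**Figure D4:**
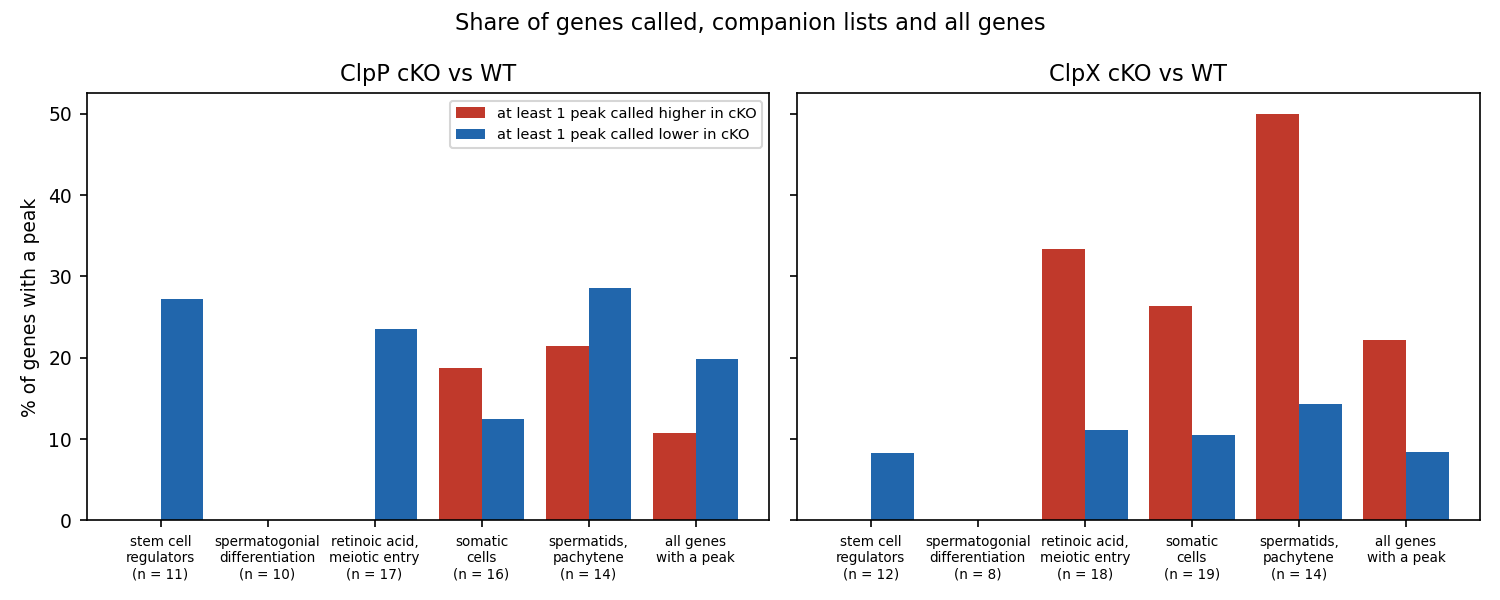
Share of genes with at least 1 peak called higher (red) or lower (blue) in the knockout, in % of the genes with a peak (y axis), for 5 lists and for all genes, in ClpP cKO (left) and ClpX cKO (right). No gene of the stem cell and differentiation lists was called higher in either comparison, against 10.7% and 22.2% of all genes; these lists hold 8 to 12 genes with a peak and leave out the 10 genes described above, Zbtb16 among them.

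Markers of the other cells of the testis were read in the same libraries. Of the list for Sertoli, Leydig, peritubular, endothelial and immune cells 3 of 16 genes were higher and 2 lower in ClpP cKO, and 5 of 19 were higher and 2 lower in ClpX cKO. As shares these were 18.8% and 12.5% for ClpP, against 10.7% and 19.9% of all genes, and 26.3% and 10.5% for ClpX, against 22.2% and 8.42%. The median log2 fold change of its peaks was 0.24 (ClpP) and 1.13 (ClpX) in the authors' deposited tables, against -0.03 and 0.24 over all peaks. Its ClpX peaks had a median fold enrichment of 4.84, against 8.90 over all ClpX peaks. All ClpX peaks in the enrichment class that spans 4.84 had a median log2 fold change of 0.48. Sertoli cell genes went both ways. The factor Sox9 was lower at -1.08 (ClpP) and -2.55 (ClpX) in the authors' deposited tables. The other lower genes of the list were Inha at -1.52 in ClpP cKO and Inhbb at -1.19 in ClpX cKO. Clu, which encodes clusterin, was higher at 0.86 (ClpP) and 1.24 (ClpX) in the authors' deposited tables. The Sox9 peak has the same coordinates in both comparisons, while the 2 Clu peaks lie at different sites. The Clu peak of the ClpX comparison had a fold enrichment of only 1.26 in the authors' deposited table. The Leydig cell enzyme Cyp17a1 was higher at 2.11 in ClpX cKO in the authors' deposited table. Acta2, Amh, Amhr2, Cldn11, Cyp11a1, Pecam1, Vwf, Ptprc and Adgre1 had no listed peak in either comparison. The summed RNA level of these markers was not available from enrichment values, and their part in the values of Dmrt1, Etv5 and Kit was not tested. The list for spermatids and pachytene spermatocytes had 3 higher and 4 lower of 14 genes in ClpP cKO and 7 higher and 2 lower of 14 in ClpX cKO. These shares were 21.4% and 28.6% for ClpP, against 10.7% and 19.9% of all genes. For ClpX they were 50% and 14.3%, against 22.2% and 8.42%. Peaks of this list were weakly enriched, with a median of 4.03 (ClpP) and 3.69 (ClpX) in the authors' deposited tables.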

How the data were processed

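The 2 tables of the authors' own comparisons were used, each resting on 4 of the 6 libraries, with 1 library per group; groups were read from the sample titles. Per the file headers, each line is 1 peak with its blocks, the p-value of the peak, scores that hold log10 of that p and of the adjusted p, a fold enrichment (a linear ratio of IP over input), a log2 fold change of the difference, and scores for log10 of its p and adjusted p. Per the submitters' processing notes the genome was GRCm38 (mm10). Aligner, peak caller and depth scaling were not given in the sources used here. Read counts were not used here, so the depth behind each value is unknown.

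Peaks were taken by gene name and counted as called at the authors' adjusted p under 0.05. No test across replicates was possible. Peaks were paired between tables by overlap of their blocks (1 shared base or more, same strand), and best mutual pairs were kept. Gene spans and the promoter came from RefSeq tables of the same build (all 10 genes matched); no genome sequence was used, so peak sequences are not shown beyond that window. Enrichment classes (5, of equal size) were formed within each table. Every peak of the 10 genes is described, and of each related list up to 4 called genes a direction could be named. The genes, lists and rules were chosen with earlier results of these data known. Recomputed adjustment and calls after median subtraction were tested on simulated data. The simulated peaks had normal errors of equal size, and their p-values came from that same model. The simulation therefore does not show how such calls behave with the deposited p-values. Python 3.11.15, pandas 2.3.3 and scipy 1.17.1 were used.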

Additional observations from a re-analysis of the deposited data

Results flagged for a closer look

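At 4 of the 15 sites of these genes that could be paired between the tables, the difference had opposite signs in the 2 knockouts. The difference between the knockouts was not tested, each knockout has 1 IP and 1 input library, and both are set against the same WT libraries. The 3′-most Zbtb16 site had log2 fold changes of -1.57 (ClpP cKO) and 1.31 (ClpX cKO), and the 5′ site of that gene -0.091 and 0.942, in the authors' deposited tables. The ClpX peak of that 5′ site also held a shorter ClpP peak at 0.387 in the authors' deposited table. That value has the sign of the ClpX value, so the opposite sign there rests on which pair was kept. The 3′ Tex101 site had -0.429 and 0.218, and the 5′ peak of the Gfra1 pair -0.109 and 0.216, in the authors' deposited tables. With each table's median removed, the ClpX values of this Gfra1 site and of the Tex101 site fell below 0, at -0.023 and -0.021, so that the signs no longer differed at these 2 sites. Peak borders differ between the tables at each of these sites.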

How the results depend on the processing

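No paired analysis was possible because each group held 1 library. Read counts were not used, so depth limits could not be given. With an adjusted p under 0.01, 0 peaks were higher and 1 lower in ClpP cKO, and 1 was higher in ClpX cKO; of all peaks 4.06%, 9.66% and 11.3% were called so. Requiring a change of at least 1 on the log2 scale left 1 lower in ClpP cKO, the 3′-most Gfra1 peak. The size requirement left 4 higher in ClpX cKO, without the 5′ Zbtb16 peak. Of all peaks 4.65% and 10.2% were called so. Leaving out peaks that share bases with another gene also left 1 lower in ClpP cKO, but a different one, the 3′ Tex101 peak. After subtraction of the median of all peaks, 2 were higher in ClpP cKO (Kit added). In ClpX cKO 1 was higher and 2 were lower. Under that rule 7.99% of all ClpP peaks were called higher, and of all ClpX peaks 11.1% higher and 13.7% lower. These new calls take each peak's error from its p, which is unreliable near 0. That subtraction turned no called value. The median over the peaks of the 9 genes in ClpP cKO was 0.77 with the smallest-p peak per gene, 0.0065 with the mean per gene, and 0.039 relative to the enrichment class. In ClpX cKO it was 0.94 with the smallest-p peak, 0.81 without shared peaks, 0.44 after median subtraction and 0.48 relative to the class. The classes were chosen after the data were seen. Recomputing the adjustment and requiring a fold enrichment of at least 2 changed no count of called peaks.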
